A study of Homo sapiens with 12 samples.

Results

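The genes described here encode DLC1 and its relatives *STARD8* and *STARD13*, the coronins *CORO1A*, *CORO1B*, *CORO1C*, *CORO2A*, *CORO2B* and *CORO7*, and the coactosin-like protein *COTL1*, all of which act on the actin cytoskeleton or on the small GTPase RhoA that controls it. They are 10 of the 23705 genes in the count table of A375 melanoma cells, and all 10 were among the 13522 genes that passed a filter on low counts and were tested. *DLC1*, *CORO2B* and *COTL1* were picked because their values rose with rosiglitazone (RGZ) in these same libraries, and the other 7 genes were added as members of the same families or as their relatives. For the 3 picked genes, every value that involves RGZ alone or vehicle is therefore given as a description without a test, while the RGZ response in cells that also received T0070907 compares other libraries and was tested. That test takes its spread, and with the block the differences between experiments, from all 12 libraries, and results of the comparison were known when the genes were chosen, so it is no independent support.

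Actin filaments are built, branched and taken apart continuously at the edge of a cell, and this turnover drives its shape, adhesion and movement. DLC1, STARD13 and STARD8 are GTPase-activating proteins of the RhoGAP family, which speed up the hydrolysis of GTP by RhoA and so switch it off, at focal adhesions in the case of DLC1, a tumour suppressor that is lost in many cancers. Coronins are WD-repeat proteins, several of which bind actin filaments and the Arp2/3 complex, which nucleates branches. COTL1 is a small protein of the actin-depolymerizing factor (ADF) homology family that binds filaments. RGZ activates the nuclear receptor PPARγ and T0070907 blocks it, so that a response to RGZ can be compared in the absence and the presence of the antagonist.

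A375 is an established line from a human melanoma, and its cells were treated for 24 h. The conditions were DMSO alone (vehicle), RGZ at 5 μM, T0070907 at 2 μM, or both compounds at these doses, called the combination below. DMSO diluted 10000 times is listed for all 4 conditions. Each of the 4 conditions had 3 libraries, 1 from each of 3 experiments, with between 8319455 and 11375227 counts per library. All groups are the same cell line at passages 30 to 32, so the libraries measure this line alone. Of the melanocyte lineage markers, *SOX10* (1558 to 4984 counts per library) and *MITF* (240 to 666) were present, while the pigment enzyme genes *TYR* and *DCT* did not exceed 1 count in any library. Of the leukocyte markers, *PTPRC*, *CD3E* and *ITGAM* did not exceed 2 counts in any library, whereas *CD68* (301 to 852 counts), *LYZ* (41 to 166), *CD14* (4 to 13) and *LCP2* (1 to 17) were detected. The summed level of the 8 melanocyte markers ranged from 284 to 503 CPM (counts relative to the library total, here unscaled and in all later values scaled by TMM) with vehicle and from 223 to 412 with RGZ, and that of the 8 leukocyte markers from 48.6 to 81.3 CPM with vehicle and from 58.9 to 101 with RGZ. The sums were 15.3 to 36.2 CPM with vehicle against 11.1 to 21.6 with RGZ for 6 fibroblast markers, 89.1 to 115 against 83.6 to 96.8 for 6 keratinocyte markers, 5.65 to 8.44 against 2.84 to 5.65 for 4 endothelial markers, which did not overlap, and 0.238 to 1.08 against 0.405 to 3.78 for 4 adipocyte markers. Of these, 3 keratinocyte and 3 adipocyte markers, among them *ADIPOQ* and *PLIN1*, did not exceed 3 counts in any library. The part of these markers in the results was not tested. The combination library of experiment 1 stood apart: its deviations from the condition means correlated with those of the other libraries of experiment 1 by only 0.0793 to 0.194, against 0.381 to 0.758 for every other pair of libraries from the same experiment. The edgeR calls of the 10 genes in comparisons that include it are also given without it. RNA was extracted from whole cultures, in which fewer cells that express a gene and less RNA per cell cannot be told apart.

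The regions in front of *COTL1* and *CORO2B* are shown because PPARγ, paired with a retinoid X receptor, binds repeats of the letters AGGTCA, and these are the picked genes with an entry in the promoter table used (RefSeq, GRCh38.p14). Each sequence holds the 250 bases before an annotated start, written in the direction of transcription with AGGTCA on either strand in capitals, and neither stretch overlaps an exon in GENCODE 29. The *COTL1* stretch lies at chr16:84618079-84618328 on the minus strand, and the *CORO2B* stretch at chr15:68616289-68616538 on the plus strand, in front of 1 of 5 listed starts. This start was chosen because its window holds AGGTCA, while 3 of the 5, among them the start nearest to the annotated start of the gene, have none.
COTL1: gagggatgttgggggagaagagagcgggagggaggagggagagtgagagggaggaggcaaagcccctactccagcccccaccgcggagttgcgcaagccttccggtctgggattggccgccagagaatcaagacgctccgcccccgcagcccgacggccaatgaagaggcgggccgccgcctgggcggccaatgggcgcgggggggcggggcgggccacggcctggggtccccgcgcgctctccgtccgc
CORO2B: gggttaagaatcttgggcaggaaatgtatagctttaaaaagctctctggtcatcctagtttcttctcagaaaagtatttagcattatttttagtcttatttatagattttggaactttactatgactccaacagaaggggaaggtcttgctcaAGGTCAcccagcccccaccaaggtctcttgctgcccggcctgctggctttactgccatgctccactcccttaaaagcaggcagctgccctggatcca

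No AGGTCA was found in the *COTL1* window. In the *CORO2B* window shown it begins 97 bases before the start, and another of the 5 *CORO2B* starts has a copy on the opposite strand that begins 73 bases before it. Over windows of 300 bases, which reach 50 bases past the start, AGGTCA on either strand was found at 6 of the 20 starts listed for 9 of the genes, namely in *CORO2B* and *STARD13* (2 starts each) and in *CORO1B* and *CORO7* (1 start each). The same letters occurred in 13.831% of all 35116 windows of this length. The full binding pattern, AGGTCA repeated with 1 base between the copies, occurred at 0 of the 20 starts and in 0.023% of all windows. The CArG box bound by serum response factor, which controls many actin genes, occurred at 0 of the 20 starts and in 1.293% of all windows. *CORO1A*, *CORO1C*, *CORO2A* and *STARD8* had none of these letters in their windows.

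With vehicle, the levels of the group ran from among the highest of these cells to the lower end of the tested genes. Per kb of its longest annotated transcript, *COTL1* had a level of 148 CPM per kb (141 to 156 over the 3 libraries), higher than or equal to 97.1% of the 13305 tested genes with a known length. *CORO1C* followed with 57.6 CPM per kb (49.3 to 62.8) and *CORO1B* with 26.4 (22.4 to 30.6). *DLC1* had 8.87 CPM per kb (6.98 to 9.95), *STARD13* 7.52 (5.25 to 9.51) and *CORO1A* 7.27 (5.89 to 8.93), so the ranges of these neighbours overlapped and their order was not set. *CORO2B* had 5.57 CPM per kb (5.25 to 5.83), inside the range of *STARD13*. *CORO2A* (3.26), *CORO7* (2.28) and *STARD8* (1.34) came last, with ranges that did not overlap between neighbours. When the shortest protein-coding transcript was used as the length, *CORO7* moved above *CORO2B* and *CORO2A* (16.3, 6.04 and 3.37 CPM per kb), and the rest of the order was kept, with *DLC1* at 172 and *COTL1* at 1483 CPM per kb.

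Among the RhoGAPs, *DLC1* (NCBI gene 10395) had 72.0, 74.1 and 52.0 CPM with vehicle in experiments 1, 2 and 3. RGZ gave 129, 146 and 107 CPM, T0070907 53.5, 58.0 and 37.4, and the combination 59.3, 74.9 and 62.5. All RGZ libraries lay above all others, and the T0070907 libraries were the lowest within each experiment. The combination libraries fell into the range of the vehicle libraries apart from a slightly higher value in experiment 2. Every RGZ library lay above every vehicle library in 9.2% of the 13522 tested genes. The mean with RGZ was 1.93 times that with vehicle (1.79, 1.97 and 2.05 times by experiment), which is the value the gene was picked for. *DLC1* thus varied 3.90-fold from its lowest to its highest library.

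*STARD13*, also called DLC2, had 46.2, 31.1 and 56.2 CPM with vehicle and 43.7, 32.0 and 55.9 with RGZ. With T0070907 it had 49.6, 34.0 and 50.9 CPM, and with the combination 37.1, 29.6 and 47.3. In every condition experiment 2 gave the lowest value and experiment 3 the highest, so that the conditions overlapped widely. *STARD8*, also called DLC3, was scarce, with 40 to 89 counts per library. It had 6.02, 8.81 and 4.71 CPM in the vehicle libraries of experiments 1 to 3, 4.78, 7.99 and 4.06 in the RGZ libraries, 6.70, 7.97 and 4.74 under T0070907 and 5.81, 8.10 and 4.50 under the combination. Here experiment 2 was the highest and experiment 3 the lowest in all 4 conditions, the reverse of *STARD13*. In GENCODE 29 (GRCh38), *STARD13* lies at chr13:33103135-33350630 and *STARD8* at chrX:68647666-68725842.

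**Figure D1:**
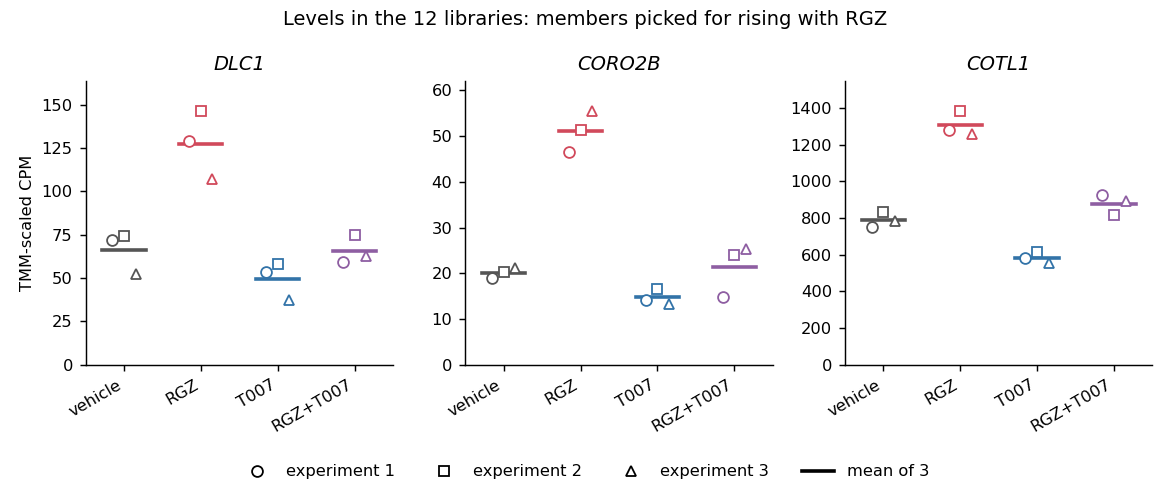
Levels of *DLC1*, *CORO2B* and *COTL1* in TMM-scaled CPM (vertical axis, from 0) in the 12 libraries by condition (T007 is T0070907); symbols mark the experiment and lines the mean of 3 libraries. The RGZ libraries lie above all others for the 3 genes, which were picked for this rise, and the combination libraries lie around those with vehicle for *DLC1*, both below and above them for *CORO2B*, and within and above them for *COTL1*.

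Among the coronins, *CORO2B* (NCBI gene 10391; chr15:68578969-68727806), a type II coronin best known from the nervous system, had 19.0, 20.3 and 21.1 CPM with vehicle. RGZ gave 46.6, 51.3 and 55.4 CPM, T0070907 14.2, 16.6 and 13.4, and the combination 14.7, 24.0 and 25.4. The RGZ libraries stood far above the rest and the T0070907 libraries below those with vehicle, without overlap. Over all tested genes, 9.2% had RGZ wholly above vehicle and 4.07% had T0070907 wholly below it. The combination library of experiment 1, at 14.7 CPM, lay among the T0070907 libraries, whereas those of experiments 2 and 3 lay above every vehicle library. The mean with RGZ was 2.54 times that with vehicle (2.46, 2.52 and 2.63 times by experiment), the widest rise of the 3 genes picked for rising.

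*CORO2A* (NCBI gene 7464; chr9:98120975-98192640), the other type II coronin and a subunit of the nuclear receptor corepressor (NCoR) complex, moved the opposite way from *CORO2B*. It had 17.7, 20.1 and 17.3 CPM with vehicle against 12.1, 14.5 and 11.8 with RGZ. T0070907 gave 23.0, 23.2 and 20.6 CPM, and the combination 17.2, 20.5 and 12.6. Every RGZ library lay below every vehicle library and every T0070907 library above them. Over all tested genes, 7.57% had RGZ wholly below vehicle and 3.6% had T0070907 wholly above it. The combination libraries ran from the RGZ range in experiment 3 to just above the vehicle range in experiment 2. *CORO1B* (NCBI gene 57175; chr11:67435510-67443821), a widely expressed type I coronin that acts at the leading edge of moving cells, had 99.9, 136 and 117 CPM with vehicle and 91.8, 112 and 99.1 with RGZ. It had 127, 146 and 129 CPM with T0070907 and 145, 141 and 124 with the combination. The lowest of the 4 values was that with RGZ in each experiment. The RGZ libraries overlapped those with vehicle but not those with T0070907 or the combination. Over all tested genes, 8.62% had the combination wholly above RGZ.

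*CORO1C*, the most abundant coronin, had 185 to 246 CPM over the 12 libraries, and the library of experiment 3 was the lowest of each condition. *CORO1A*, the type I coronin best known from leukocytes, had 16.6 to 25.8 CPM. *CORO7*, the coronin with a doubled WD-repeat region that works at the Golgi, had 6.65 to 11.7 CPM, and its highest value came from the combination library of experiment 1, where the other combination libraries had 8.41 and 8.04. The conditions overlapped for these 3 genes. The positions were chr12:108645109-108731596 for *CORO1C*, chr16:30182827-30189076 for *CORO1A* and chr16:4354542-4425705 for *CORO7*. Whether reads were counted by strand is not given in the sources used here, and *CORO7* overlaps the readthrough gene *CORO7-PAM16* as well as *PAM16* and *VASN*, *CORO1B* overlaps *PTPRCAP* on the same strand, and *CORO1A* and *COTL1* each overlap an antisense gene. *DLC1* overlaps 6 annotated genes (2 on its own strand), *STARD13* 5 (3 on its own strand) and *CORO1C* 1, so reads of all these could have been shared. *STARD8*, *CORO2A* and *CORO2B* overlap 0 annotated genes.

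**Figure D2:**
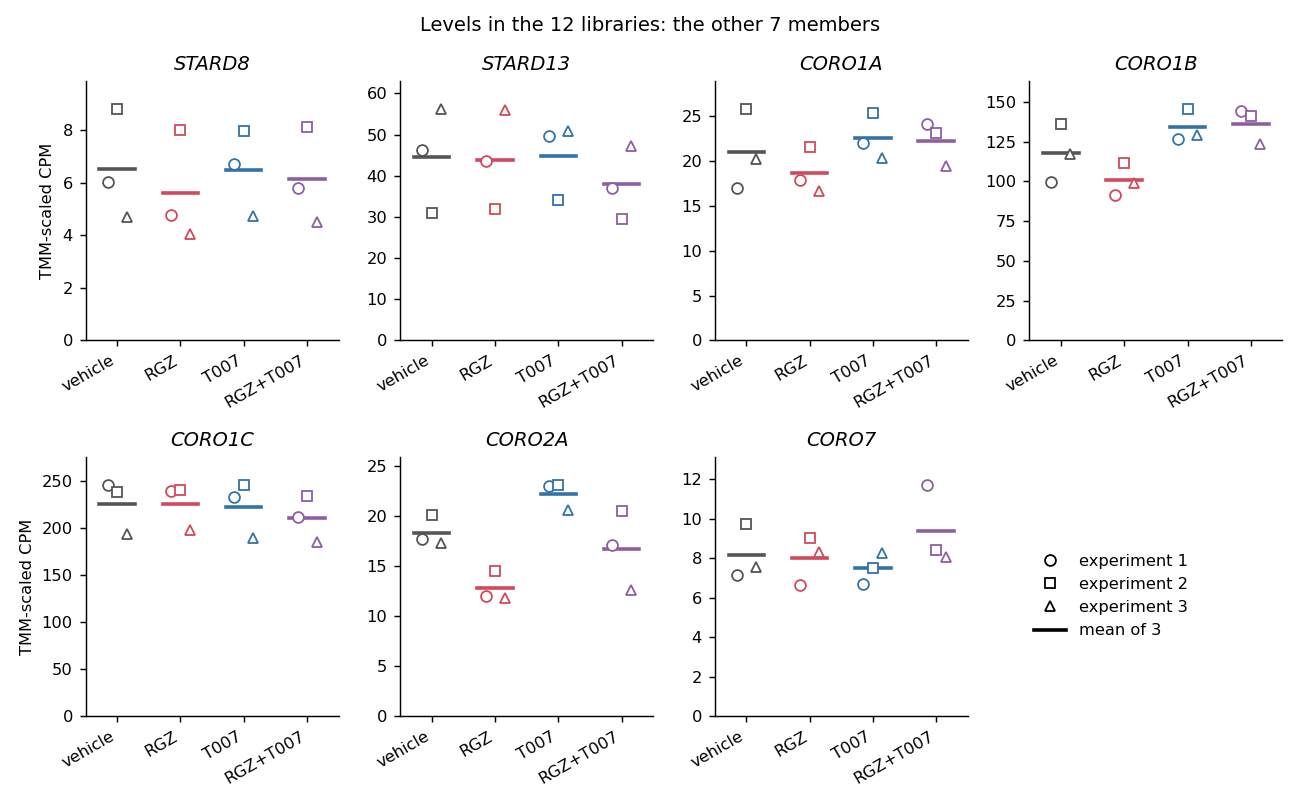
Levels of the other 7 genes in TMM-scaled CPM (vertical axes, from 0) in the 12 libraries by condition, with symbols for the experiment and lines for the mean of 3 libraries. *CORO2A* has its lowest mean with RGZ, while *STARD8*, *STARD13* and *CORO1C* are ordered by experiment rather than by condition.

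*COTL1* (NCBI gene 23406; chr16:84565594-84618077) had the tightest replicates of the group. It had 750, 832 and 781 CPM with vehicle against 1280, 1381 and 1256 with RGZ. T0070907 gave 579, 614 and 556 CPM, and the combination 923, 815 and 892. Vehicle, RGZ and T0070907 formed 3 levels that did not overlap. Over all tested genes, 16.8% had no overlap between RGZ and vehicle, and 7.67% none between T0070907 and vehicle. The combination lay between vehicle and RGZ, with its lowest library, that of experiment 2, within the vehicle range. The mean with RGZ was 1.66 times that with vehicle (1.71, 1.66 and 1.61 times by experiment), the measure it was picked for. Within a condition, the SD was at most 6.33% of the mean for *COTL1* (n = 3), against 12.6% to 21.8% for *DLC1*.

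The comparison of RGZ with vehicle asks which genes answer the agonist. In the quasi-likelihood test of edgeR, with Benjamini-Hochberg adjustment over all 13522 genes, 167 genes (1.24%) were called (adjusted p-value under 0.05), but 0 of the 7 genes that were not picked. At an unadjusted p-value under 0.05 there was 1 of the 7, *CORO2A*, against 10.5% of all genes, and DESeq2 called 0 of the 7. *CORO2A* was lower with RGZ in 3 of 3 experiments (log2 fold change -0.52, standard error 0.16, adjusted p = 0.21). When the experiment was added to the model as a block, 1258 genes (9.3%) were called, with 1 of the 7 among them, *CORO2A*, lower with RGZ (-0.52, standard error 0.11, adjusted p = 0.00565). This blocked call was lost without the vehicle library of experiment 3 (adjusted p = 0.052) and held in each of the other 11 fits that left out a library. *CORO1B* was lower in 3 of 3 experiments (log2 fold change -0.23, 95% interval -0.48 to 0.03, adjusted p = 0.533; with the block -0.22, -0.38 to -0.06, adjusted p = 0.0855). With the block and without the combination library of experiment 1, both *CORO1B* (-0.22, adjusted p = 0.00497) and *CORO2A* (-0.52, adjusted p = 0.0011) were called, as they were without that of experiment 2 or the vehicle library of experiment 1 (*CORO1B* adjusted p = 0.037 and 0.0203). The counts over all genes changed when a library was left out. Without any 1 of the vehicle or RGZ libraries the 167 became 45 to 89. With the block the 1258 became 708 without the vehicle library of experiment 3 and 759 and 823 without the RGZ library of experiment 2 or 3. It became 2025 without the combination library of experiment 1. Whether the smaller counts reflect the loss of a replicate or a particular library was not tested.

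For the remaining 5 genes the intervals of the RGZ change bound its size without showing that it is absent. For *CORO1C* the log2 fold change was -0.0016 (95% interval -0.28 to 0.28, and -0.11 to 0.11 with the block). *STARD13* had -0.02 (-0.58 to 0.54, and -0.19 to 0.15 with the block), *CORO7* -0.03 (-0.45 to 0.39), *CORO1A* -0.17 (-0.52 to 0.18) and *STARD8* -0.22 (-0.93 to 0.49). The median over the 7 genes was -0.17, against -0.0095 over all tested genes.

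T0070907 alone against vehicle asks whether the antagonist acts without an added agonist. For this comparison 1 of the 13522 genes (0.0074%) and 0 of the 7 genes were called without the block, and 123 genes (0.91%) and again 0 of the 7 with it, while DESeq2 also called 0 of the 7. At an unadjusted p-value under 0.05 there were 0 of the 7 without the block (3.1% of all genes) and 2 with it (9.82% of all genes), *CORO2A* (log2 fold change 0.28, adjusted p = 0.336) and *CORO1B* (0.19, adjusted p = 0.386), each higher in 3 of 3 experiments. Leaving out 1 library gave 0 to 5 genes called without the block and, with it, 30 to 62 without any vehicle or T0070907 library, 330 without the combination library of experiment 1 and 208 without that of experiment 2, with 0 of the 7 among them in each. The 3 picked genes were lower with T0070907 than with vehicle in 3 of 3 experiments, at 0.751 times the vehicle mean for *DLC1*, 0.731 times for *CORO2B* and 0.740 times for *COTL1*. These values share the vehicle libraries with the comparison the genes were picked on and were not tested.

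The combination against vehicle asks whether the antagonist returned the genes to the vehicle level. It called 0 of 13522 genes (0%) and 0 of the 7, in edgeR without and with the block (also 0%) and in DESeq2, although 1438 genes without the block (10.6%) and 2868 with it (21.2%) were under 0.05 before adjustment. The 1438 became 460 and 924 without the vehicle library of experiment 1 or 3, 518 without the combination library of experiment 1, and 2295 and 2278 without the vehicle or the combination library of experiment 2. The blocked fit called 2593 genes without the combination library of experiment 2, 874 without the vehicle library of experiment 2, 7 without the combination library of experiment 1, 1 without the RGZ library of experiment 3, and 0 in the other 8 fits that left out a library. Of the 7 genes, 0 were under 0.05 unadjusted without the block, and 2 with it, *CORO1B* (log2 fold change 0.22, 95% interval 0.06 to 0.38) and *STARD13* (-0.22, -0.39 to -0.05), at adjusted p = 0.134 and 0.144; both were called in the blocked fit without the combination library of experiment 2 (adjusted p = 0.0183 and 0.0485). In the blocked fit without the combination library of experiment 1 they had 0.10 (adjusted p = 0.626) and -0.17 (adjusted p = 0.525). The combination mean was 0.993 times the vehicle mean for *DLC1*, 1.06 times for *CORO2B* and 1.11 times for *COTL1*, without a test, and by experiment the ratio was 0.824, 1.01 and 1.20 for *DLC1*, 0.775, 1.18 and 1.21 for *CORO2B* and 1.23, 0.98 and 1.14 for *COTL1*.

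The combination against RGZ alone is the direct measure of what the antagonist changed in the presence of RGZ. It called 167 genes (1.24%) without the block and 0 of the 7, with 2 under 0.05 unadjusted (13.1% of all genes), and 1545 genes (11.4%) with the block, among them 2 of the 7, both higher with the combination. The 167 became 53 without the combination library of experiment 1 and 63 to 85 without any RGZ library, and the 1545 became 857 to 1012 without any RGZ library and 2582 without the combination library of experiment 2. *CORO1B* was higher by 0.44 on the log2 scale with the block (standard error 0.08, adjusted p = 0.000819; 0.43 and adjusted p = 0.111 without it, and 0.39 and 0.354 there without the combination library of experiment 1), and DESeq2 called it too (adjusted p = 0.0217). *CORO1B* stayed called with the block in all 12 fits that left out a library, with 0.32 (adjusted p = 0.000481) without the combination library of experiment 1. *CORO2A* was higher by 0.39 (standard error 0.12, adjusted p = 0.0375 with the block, 0.337 without it, and 0.582 there without the combination library of experiment 1). That call was kept in 5 of the 12 fits that left out a library, and was lost without the combination library of experiment 1 (0.36, adjusted p = 0.0811), without that of experiment 2 (adjusted p = 0.141), without any RGZ library (0.0851 to 0.172), without the vehicle library of experiment 3 (0.0512) and without the T0070907 library of experiment 1 (0.0518). The picked genes were lower with the combination than with RGZ in 3 of 3 experiments, at 0.515 times the RGZ mean for *DLC1*, 0.418 times for *CORO2B* and 0.672 times for *COTL1*, again without a test. In experiments 2 and 3 alone these ratios were 0.513 and 0.585 for *DLC1*, 0.468 and 0.458 for *CORO2B* and 0.590 and 0.710 for *COTL1*.

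RGZ given on top of T0070907, compared with T0070907 alone, is the only comparison in which all 10 genes were tested. Without the block 5 of the 13522 genes (0.037%) were called, and *COTL1* was the 1 gene of the group among them, higher with the combination by 0.59 on the log2 scale (standard error 0.07, adjusted p = 0.011), and in 3 of 3 experiments (1.59, 1.33 and 1.60 times). This call was already known when *COTL1* was chosen, so it is no independent support. It was lost when only these 6 libraries were fitted (adjusted p = 0.244), without the T0070907 library of experiment 1 (0.112), 2 (0.0593) or 3 (0.111) and without the combination library of experiment 3 (0.0545), and it held without the combination library of experiment 1 (0.55, adjusted p = 0.0178). Over these single omissions the change itself stayed between 0.55 and 0.64, and the 5 genes called became 0, 0 and 1 without the T0070907 library of experiment 1, 2 or 3 and 14 without the combination library of experiment 1. DESeq2 called *COTL1* as well (adjusted p = 1.3e-13).

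With the block, 1185 genes (8.76%) were called in this comparison, and 4 of the 10 genes were among them. The 1185 became 3347, 632 and 107 without the combination library of experiment 2, 1 or 3, 213 and 168 without the T0070907 library of experiment 1 or 2, 725 without the vehicle library of experiment 3, and 758 and 759 without the RGZ library of experiment 1 or 3. *COTL1* was higher by 0.59 (standard error 0.06, adjusted p = 3.56e-05) and was called in all 12 fits that left out a library. *CORO2B* was higher by 0.55 (standard error 0.13, adjusted p = 0.0182; 0.54 and 0.261 without the block) and *DLC1* by 0.42 (standard error 0.09, adjusted p = 0.0107; 0.40 and 0.323 without the block). Both were higher in 3 of 3 experiments, but unevenly: the ratio for *CORO2B* was 1.03, 1.45 and 1.90 and that for *DLC1* 1.11, 1.29 and 1.67 in experiments 1, 2 and 3. Without the combination library of experiment 1 the blocked changes rose to 0.70 for *CORO2B* (adjusted p = 6.05e-05) and 0.52 for *DLC1* (adjusted p = 2.95e-05). Without that of experiment 3 both calls were lost (adjusted p = 0.126 and 0.0938), as they were without the T0070907 library of experiment 2 (0.0656 and 0.0554), and that of *CORO2B* also without the T0070907 library of experiment 3 (0.0862).

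The fourth gene, *CORO2A*, was lower with the combination in 3 of 3 experiments (log2 fold change -0.41, standard error 0.10, adjusted p = 0.0255 with the block, 0.281 without it). With the block it was thus called as lower with RGZ both in the absence and in the presence of the antagonist. Its blocked call was lost without any of the 3 T0070907 libraries (adjusted p = 0.0587 to 0.143) and without the combination library of experiment 3 (0.156), and it held without that of experiment 1 (-0.44, adjusted p = 0.024). *STARD13* did not pass (-0.24, 95% interval -0.41 to -0.07 with the block, adjusted p = 0.0672), but was called in the blocked fits without the T0070907 library of experiment 3 and without the combination library of experiment 2 (adjusted p = 0.037 and 0.0281), and had -0.19 (adjusted p = 0.223) without that of experiment 1. Side by side, the log2 change with RGZ was 0.95 without the antagonist and 0.40 with it for *DLC1*, 1.34 and 0.54 for *CORO2B*, 0.73 and 0.59 for *COTL1*, and -0.52 and -0.41 for *CORO2A*. The difference between the 2 responses was -0.54 for *DLC1*, -0.80 for *CORO2B* and -0.14 for *COTL1*, and was not tested for these genes, since the RGZ response without the antagonist chose them. Without the combination library of experiment 1, the change on top of the antagonist was 0.47 for *DLC1*, 0.75 for *CORO2B*, 0.55 for *COTL1* and -0.42 for *CORO2A*, and the differences were -0.48, -0.60 and -0.18 for the picked genes in the same order.

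**Figure D3:**
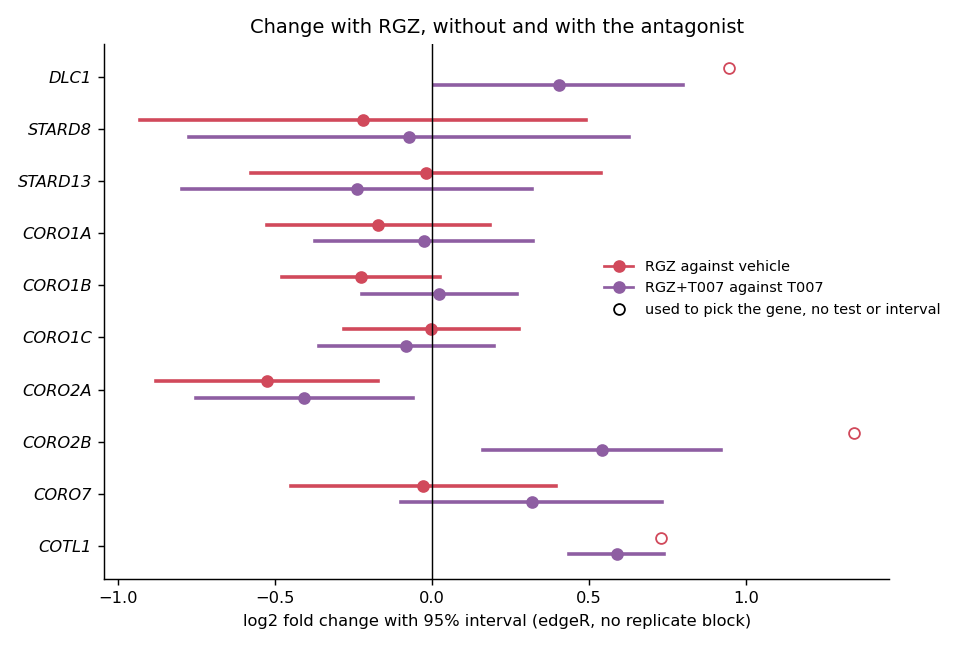
Log2 fold changes (horizontal axis) of the 10 genes for RGZ against vehicle and for the combination against T0070907 alone, with 95% intervals from edgeR without the block for the values tested. Open points are the values that picked *DLC1*, *CORO2B* and *COTL1* and carry neither test nor interval; *COTL1* lies at 0.73 without and 0.59 with the antagonist, *CORO2A* lies below 0 in both comparisons, and most other intervals include 0.

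The interaction of the compounds tests whether the RGZ change differed with the antagonist present. It called 0 of 13522 genes (0%) in edgeR without the block (406 under 0.05 unadjusted; DESeq2 called 1), and 38 genes (0.281%) with it, which became 1 to 22 without any vehicle, RGZ or T0070907 library and 102 and 149 without the combination library of experiment 1 or 2. The 406 became 243 and 615 without the T0070907 library of experiment 1 or 3 and 711 without the combination library of experiment 2. Of the 7 genes, 0 were called in either fit or by DESeq2, with 0 under 0.05 unadjusted without the block and 1 with it (9.79% of all genes), *CORO1B*, at 0.25 (95% interval 0.02 to 0.47, adjusted p = 0.473) and at 0.13 (adjusted p = 0.69) without the combination library of experiment 1. For *CORO2A* the interaction was 0.12 (-0.38 to 0.61; 0.10 without that library), so the responses without and with the antagonist were not shown to differ, nor shown to be alike.

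The make-up of both families is compared here as CPM per kb of the longest transcript. *DLC1* made up 50.1% ± 9.4 of the 3 RhoGAPs with vehicle, and RGZ brought it to 66.4% ± 7.7, T0070907 to 42.7% ± 8.5 and the combination to 53.4% ± 6.0 (mean ± SD, n = 3). The libraries with vehicle (40.0% to 58.5%) overlapped those with RGZ (58.3% to 73.6%) and with T0070907 (34.4% to 51.3%). Within each experiment, though, the share was higher with RGZ and lower with T0070907 than with vehicle. The summed level of the 3 genes was 17.0 to 18.7 CPM per kb with vehicle and 24.6 to 26.7 with RGZ. *CORO2B* made up 5.48% ± 0.66 of the coronins with vehicle, against 13.5% ± 1.9 for RGZ, 3.89% ± 0.13 for T0070907 and 5.79% ± 1.8 for the combination (SD, n = 3), and here the vehicle, RGZ and T0070907 libraries did not overlap. The sum over the coronins overlapped between conditions, with 93.7 to 112 CPM per kb with vehicle and 98.1 to 113 with RGZ. *CORO1C* alone made up 56.2% of it with vehicle and 54.6% with RGZ. The shares of *DLC1* and *CORO2B* rest on the rise they were picked for and on the transcript length used: per kb of the shortest protein-coding transcript, *DLC1* made up 77.6% with vehicle and 87.2% with RGZ, and *CORO2B* 0.883% and 2.33%. With the combination in experiments 2 and 3 alone, *DLC1* made up 60.2% and 48.5% of the RhoGAPs and *CORO2B* 5.93% and 7.56% of the coronins.

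**Figure D4:**
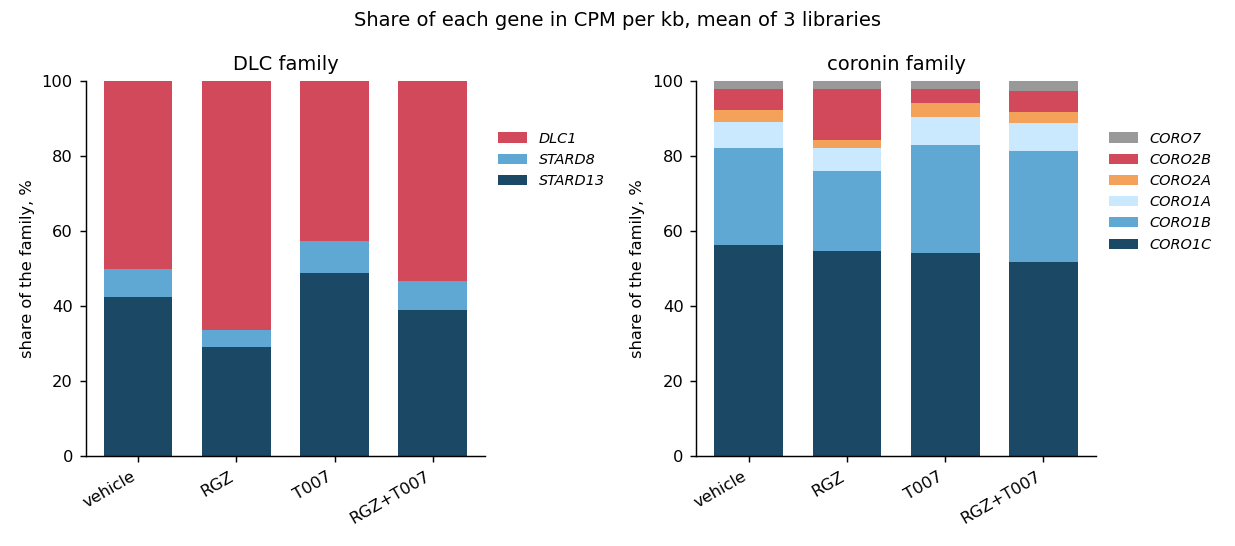
Share (vertical axis, %) of each gene in the summed CPM per kb of the DLC family (left) and of the coronins (right), as the mean of 3 libraries per condition. *DLC1* takes 50.1% with vehicle and 66.4% with RGZ, and *CORO2B* 5.48% and 13.5%.

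The genes differed in whether condition or experiment ordered their libraries. Of the variance of log2 CPM over the 12 libraries, the experiment accounted for 90.0% in *STARD8*, 88.0% in *CORO1C* and 87.3% in *STARD13*, against a median of 27.7% over all tested genes. For *STARD13* the mean over conditions was 44.1, 31.6 and 52.6 CPM in experiments 1, 2 and 3, and for *CORO1C* 232, 240 and 191. The condition accounted for 97.7% in *COTL1*, 92.0% in *CORO2B* and 84.6% in *DLC1*, as follows from their choice, and for 74.4% in *CORO2A* and 65.3% in *CORO1B*, against a median of 34.3%. In *CORO7* neither did, and 66.8% was left over, but over the 11 libraries without the combination library of experiment 1 the experiment accounted for 67.6% in *CORO7*. Over the same 11 libraries the experiment accounted for 90.0% to 96.1% in *STARD8*, *CORO1C* and *STARD13*, and the condition for 62.6% to 98.2% in *COTL1*, *CORO2B*, *DLC1*, *CORO2A* and *CORO1B*. With a library missing, each share was taken with its own factor entered first. The shares of condition and experiment then overlap and are not parts of a whole like those of the 12 libraries.

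**Figure D5:**
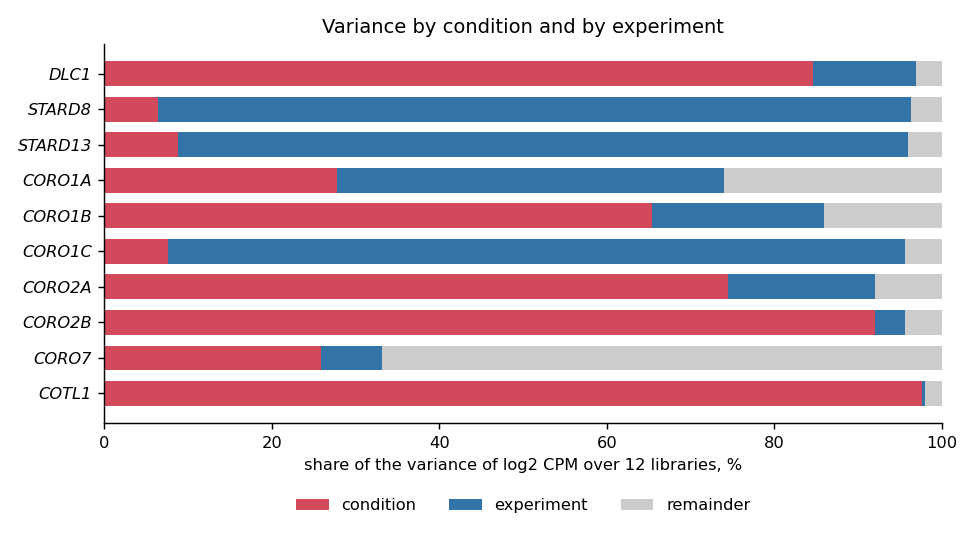
Share of the variance of log2 CPM over the 12 libraries (horizontal axis, %) that goes with condition, with experiment or with neither, for each of the 10 genes. Condition dominates in *COTL1*, *CORO2B*, *DLC1* and *CORO2A*, and experiment in *STARD8*, *CORO1C* and *STARD13*.

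Across the 12 libraries, after the mean of each experiment was taken out, the 3 picked genes ran close together, with a Pearson correlation of 0.994 between *DLC1* and *CORO2B*, 0.946 between *DLC1* and *COTL1* and 0.926 between *CORO2B* and *COTL1*. *CORO2A* mirrored them, at -0.937 with *DLC1*, -0.917 with *CORO2B* and -0.959 with *COTL1*, and *CORO1A* and *CORO1B* ran together at 0.918. Of 13217 genes that averaged 1 CPM or more, the most alike to *DLC1* were the integrin gene *ITGA3* (0.995), *CORO2B* (0.994) and *MIR22HG* (0.994). Those most alike to *CORO2B* were *DLC1*, the RhoGAP gene *ARHGAP29* (0.993) and *AREG* (0.992), and those most alike to *COTL1* were *PLAAT3* (0.995), *ECH1* (0.993) and *SQSTM1* (0.989). These values describe 12 libraries that share conditions and experiments, and any gene that rose with RGZ in all experiments would score high. Over the 11 libraries without the combination library of experiment 1, the picked genes correlated at 0.983 to 0.995 with each other and at -0.965 to -0.942 with *CORO2A*, and *CORO1A* with *CORO1B* at 0.875. The genes most alike then were *PLIN2* (0.996) for *DLC1*, *AREG* (0.996) for *CORO2B* and *PDK4* (0.999) for *COTL1*, with *MIR22HG* and *ITGA3* still among the first 3 for *DLC1*.

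Around these genes, 6 lists of the same pathways held 139 genes, of which 133 were tested. For RGZ against vehicle, 3 of them were called without the block (2.26%, against 1.24% of all genes) and 27 with it (20.3%, against 9.3%), 15 higher and 12 lower. For the combination against RGZ, 3 were called without the block (2.26%, against 1.24% of all genes), all lower. With it 26 were called, 12 higher and 14 lower (19.5%, against 11.4% of all genes). For the combination against T0070907 the counts were 0 and 21 (15.8% with the block, against 8.76%), 10 higher and 11 lower. For T0070907 and for the combination against vehicle they were 0 without and with the block. Without the combination library of experiment 1, 0 were called without the block for the combination against RGZ, and the blocked counts were 39 of 133 for RGZ against vehicle (29.3%, against 15% of all genes), 26 for the combination against RGZ (19.5%, against 9.2%) and 12 for the combination against T0070907 (9.02%, against 4.67%), and 9 were called for T0070907 (6.77%, against 2.44%) and 1 for the combination against vehicle (0.752%, against 0.0518%). The list medians of the log2 change with RGZ lay between -0.06 for the DLC1 partners and 0.06 for the Arp2/3 genes, against -0.0095 over all genes.

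Among 23 tested genes of other RhoGAPs, 0 were called for RGZ without the block, and with it 2 rose and 3 fell. *ARHGAP26* (0.88, adjusted p = 1.69e-06) and *ARHGAP29* (0.84, adjusted p = 1.27e-05) rose and *ARHGAP18* fell (-0.69, adjusted p = 1.13e-05). *ARHGAP26* and *ARHGAP18* were also the 2 genes of the lists called for the interaction with the block (-0.63 and 0.58, adjusted p = 0.0453 and 0.0374). That was 1.5% of the tested list genes, against 0.281% of all genes. Both were called without the combination library of experiment 1 (-0.55 and 0.61, adjusted p = 0.0271 and 0.00354). Then 5 genes of the lists were called (3.76%, against 0.754% of all genes). *ARHGAP29* had 123, 163 and 67.1 CPM with vehicle and 213, 278 and 129 with RGZ, so each RGZ library exceeded the vehicle library of its own experiment while the groups overlapped. Of 14 tested partners of DLC1 at focal adhesions, the tensin gene *TNS3* was called as lower with RGZ (-0.50, adjusted p = 0.0142 without the block), and with the block *S100A10* rose (0.34, adjusted p = 0.0011) and *TNS2* fell (-0.25, adjusted p = 0.0334).

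Among 16 genes of the ADF-homology family, to which COTL1 belongs, and of cofilin control, 0 were called for RGZ without the block. With it 3 rose and 1 fell, where 9.3% of all genes were called. The twinfilin gene *TWF2* rose (0.37, adjusted p = 0.00277) and *SSH1*, the slingshot phosphatase that activates cofilin, fell (-0.32, adjusted p = 0.0168). *GMFG*, with a mean of 0.966 CPM over all libraries, was also counted as rising (0.341 to 1.18 CPM with vehicle, 1.66 to 2.06 with RGZ). This gene passed the filter on low counts only through the RGZ libraries, so its calls, which the list totals include, are no support. Of 25 tested genes of the Arp2/3 complex and its activators, *WHAMM* was called as higher with RGZ without the block (0.58, adjusted p = 0.0153) and lower with the combination than with RGZ (-0.55, adjusted p = 0.0184), a call lost without the combination library of experiment 1 (-0.52, adjusted p = 0.094). With the block, the subunit genes *ARPC4* (0.26), *ARPC5* (0.23) and *ARPC3* (0.22) were higher with the combination than with T0070907 (adjusted p = 0.0372, 0.0207 and 0.0447), and of these *ARPC5* alone was called without the combination library of experiment 1 (adjusted p = 0.133, 0.0246 and 0.15). Of 28 tested actin and filament-binding genes, 0 were called for RGZ without the block. With it 5 rose and 3 fell, where 9.3% of all genes were called. Those that fell included the tropomyosin gene *TPM1* (-0.39, adjusted p = 0.000257) and the calponin gene *CNN3* (-0.33, adjusted p = 0.00083).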

How the data were processed

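RNA of A375 cells was sequenced in 12 libraries (Illumina TruSeq), with the RNA of technical replicates pooled within an experiment. The authors deposited raw counts of reads per gene for 23705 NCBI gene numbers, without normalization; 23538 had a symbol. The labels name the build hg19; the aligner, counter, annotation and strand setting are not given in the sources used here. Groups and experiment numbers came from the labels. No column belonged to another sample (0 of them), and 3 counts, taken as the floor, equalled 0.258 to 0.371 CPM (counting error only).

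The analysis used edgeR 4.0.16 in R 4.3.3 (TMM, filterByExpr, quasi-likelihood test, 4 conditions as groups, 12 libraries) and p-values were adjusted by the Benjamini-Hochberg method over 13522 genes at 0.05. Standard errors are the size of the log2 change divided by the root of the F statistic, with 95% intervals from the same fit. The series text gives 3 independent experiments, and the number in the sample labels, which is not itself called an experiment there, was read as the experiment that libraries of different conditions share. Libraries with the same number deviated together (mean correlation 0.554, from 0.0793 to 0.758 over 18 pairs, with 1 pair under 0.1), so a fit with the experiment as replicate block is given where it changed a call. Alternatives were DESeq2 1.42.0, its size factors within edgeR, no filter, at least 10 counts in every library, only the groups compared, and leaving out each library; the blocked fit without each library and the list genes, family shares, variance shares and correlations without the combination library of experiment 1, and shares by the shortest transcript, were added after seeing the data. With 1 library of a condition left out, the test uses the spread of all groups. Positions and lengths came from GENCODE 29, symbols and promoters from RefSeq.

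The genes, lists and rules were chosen with earlier results of these data known. Named were the 10 genes, at most 3 called genes with the largest change per list and comparison, and the 3 genes most alike to each picked gene by correlation. Of the lists' called genes, some are not reported here.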

Additional observations from a re-analysis of the deposited data

How the results depend on the processing

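Of 70 log2 fold changes and levels of single genes, 30 kept their direction and, where tested, their side of the threshold under every alternative, with moves within the spread between replicates where not tested, and 25 changed sign under at least 1. Of these, 23 had an adjusted p-value above 0.05 in the fit reported, and 2, *DLC1* and *CORO2B* for the combination against vehicle, were not tested. The replicate block moved the counts of genes called to 1 of 7 for RGZ against vehicle, 2 of 7 for the combination against RGZ and 4 of 10 for the combination against T0070907, and changed no other count of the group. DESeq2 called 1 of 7 for the combination against RGZ, and the model of only the groups compared called 0 of 10 for the combination against T0070907. Leaving out a library gave 0 to 1 of 10 there, and with the block 0 to 2 of 7 for RGZ against vehicle, 1 to 2 for the combination against RGZ, 0 to 2 for the combination against vehicle and 1 to 5 of 10 for the combination against T0070907. Over all genes, the model of only the groups compared called 69, 41 and 0 genes for RGZ against vehicle, the combination against RGZ and the combination against T0070907, and DESeq2 302, 318 and 83, against 167, 167 and 5; for T0070907 against vehicle DESeq2 called 21, no filter 3 and at least 10 counts 0, against 1; no filter called 10 for the combination against T0070907. For *CORO1C* with RGZ the sign turned with the block (9.76e-05), DESeq2's size factors (0.000109), DESeq2 (0.000144) and no filter (0.0038). For *DLC1* with the combination against vehicle it turned with the block (0.0016, against -0.0099). The other sign changes came from leaving out a library, over which log2 fold changes spanned 0. For RGZ against vehicle they ran from -0.56 to 0.057 in *STARD8*, from -0.23 to 0.18 in *STARD13*, from -0.30 to 0.0025 in *CORO1A*, from -0.10 to 0.086 in *CORO1C* and from -0.12 to 0.12 in *CORO7*. For T0070907 against vehicle they ran from -0.20 to 0.27 in *STARD8*, from -0.19 to 0.21 in *STARD13*, from -0.028 to 0.28 in *CORO1A*, from -0.12 to 0.081 in *CORO1C* and from -0.20 to 0.034 in *CORO7*. For the combination against vehicle they ran from -0.16 to 0.083 in *DLC1*, from -0.051 to 0.29 in *CORO2B*, from -0.34 to 0.20 in *STARD8*, from -0.053 to 0.25 in *CORO1A* and from -0.30 to 0.038 in *CORO2A*. For the combination against RGZ they ran from -0.12 to 0.47 in *STARD8* and from -0.40 to 0.0035 in *STARD13*. For the combination against T0070907 they ran from -0.33 to 0.11 in *STARD8*, from -0.097 to 0.067 in *CORO1A*, from -0.019 to 0.090 in *CORO1B* and from -0.18 to 0.0041 in *CORO1C*. For the interaction they ran from -0.13 to 0.48 in *STARD8*, from -0.026 to 0.28 in *CORO1A*, from -0.18 to 0.021 in *CORO1C* and from -0.055 to 0.29 in *CORO2A*. For levels per kb, the shortest transcript raised *STARD13* to 47.1, *CORO1A* to 36.1, *CORO1B* to 214 and *CORO1C* to 413 CPM per kb. DESeq2 gave no adjusted p for some of the scarcer genes, among them *CORO2A* and *CORO2B* for the combination against T0070907. The cause of these differences was not tested. The intervals were widest for *STARD8*, with 40 to 89 counts per library.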
